A study of Mus musculus with 34 samples.

Results

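The clustered histone genes were taken as every entry of the deposited expected-count table whose symbol starts with Hist1h, Hist2h, Hist3h or Hist4h. The rule found 43 of the 29876 gene entries, of which 6 are named for linker histone H1, 15 for H2A, 18 for H2B, 3 for H3 and 1 for H4. By name, 34 entries belong to the Hist1 cluster, 6 to Hist2 and 3 to Hist3. Of the 41 entries with a deposited mm9 position, 32 lie on chromosome 13, 6 on chromosome 3 and 3 on chromosome 11. Hist4h4 was not analysed here, and Hist3h2bb is present as the pseudogene Hist3h2bb-ps, which is counted among the 18 H2B entries. RNA was sequenced from mouse cell lines with a changed 7qF3 interval, the mouse counterpart of human 16p11.2, at 3 stages of a differentiation towards midbrain dopaminergic neurons. The del cells carry genotype 129Sv df/+, a deletion of 1 copy, the dupdel cells 129Sv df/dp, a deletion on 1 copy and a duplication on the other, and the control (con) cells 129Sv +/+. All share the labelled background strain C57BL/6N. Embryonic stem cells (ESCs) were grown with LIF, and gave 3 del, 3 dupdel and 3 control libraries. Neuronal progenitors (NPCs), harvested after 5 days of differentiation by way of epiblast stem cells, gave 3 del, 3 dupdel and 5 control libraries. Immature dopaminergic neurons (NEU), harvested after 16 days, gave 2 del, 2 dupdel and 4 control libraries. The labels do not say how many clones stand for a genotype, nor whether replicates came from separate cultures, so p-values measure the spread between these libraries, which may be technical.

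Core histones H2A, H2B, H3 and H4 form the spool around which DNA is wrapped, and H1 binds the linker DNA between spools. Most clustered histone genes are transcribed during S phase, when new chromatin is assembled, and their mRNAs end in a conserved stem-loop bound by SLBP instead of a poly(A) tail. Stem-loop histone mRNAs are degraded when replication stops, while some members can also give polyadenylated transcripts in cells that have left the cycle. Libraries made from total RNA, as here, can hold both forms, and the counts do not tell them apart.

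Many of the entries share sequence or position. In the deposited positions 29 of the 43 overlap another member, in most cases the long span listed for Hist1h3a, and 6 entries span over 5000 bases. Values that are not whole, which can arise when reads are divided among near-identical copies, occur in 37 of the 43. The same count was not made over all entries, so it is not shown to be particular to the members. The labels do not say whether counting used strand, so levels of individual copies are uncertain where copies resemble or overlap each other.

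The promoters show what the members share beyond their coding sequences. Motifs were searched on both strands in the 250 bases before the RefSeq start (GRCm38.p6) of the 38 members matched to 1 RefSeq gene with a listed promoter. The letters CCAAT occur in 37 of the 38 (97.4%), against 34.5% of 27025 RefSeq promoters of the same length. The letters TATAAA occur in 20 (52.6%), against 13%. The octamer ATTTGCAT occurs in 14 (36.8%), against 1.61% of all promoters, and these are 7 of 14 H2A and 7 of 15 H2B promoters and none of the H1, H3 and H4 promoters. A match is a description of the letters, not of binding. Each motif was counted as present or not in a promoter, whether or not its match overlapped another motif. Where neighbouring genes start close together in opposite directions, their windows overlap, and the same site can be counted for both. This was so for the octamers of Hist1h2aa with Hist1h2ba, Hist1h2ae with Hist1h2bg, and Hist1h2ah with Hist1h2bk. The 150 bases before the start are shown for 5 members whose levels across stages are described next, with the matches to all 3 motifs, on either strand, in capitals. Hist1h1a and Hist1h2bb were lower in neurons, Hist2h2ac is a Hist2 H2A gene that was also lower, and Hist3h2ba and Hist1h1e were higher in NPCs than in ESCs.
Hist1h1a (RefSeq H1f1, chr13:23763518-23763667, + strand): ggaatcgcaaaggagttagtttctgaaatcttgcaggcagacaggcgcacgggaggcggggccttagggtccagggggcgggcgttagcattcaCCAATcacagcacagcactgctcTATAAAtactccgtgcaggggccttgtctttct
Hist1h2bb (RefSeq H2bc3, chr13:23746584-23746733, + strand): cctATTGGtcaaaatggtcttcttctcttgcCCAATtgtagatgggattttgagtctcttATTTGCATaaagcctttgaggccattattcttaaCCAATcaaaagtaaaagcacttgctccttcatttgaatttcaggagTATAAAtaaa
Hist2h2ac (RefSeq H2ac20, chr3:96220881-96221030, - strand): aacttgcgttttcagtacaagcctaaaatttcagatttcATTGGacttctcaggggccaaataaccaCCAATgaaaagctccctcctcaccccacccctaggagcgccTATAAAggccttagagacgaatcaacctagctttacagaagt
Hist3h2ba (RefSeq H2bu2, chr11:58948761-58948910, + strand): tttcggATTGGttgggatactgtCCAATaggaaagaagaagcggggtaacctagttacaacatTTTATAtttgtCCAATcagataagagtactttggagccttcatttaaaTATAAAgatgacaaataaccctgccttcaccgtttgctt
Hist1h1e (RefSeq H1f4, chr13:23622559-23622708, - strand): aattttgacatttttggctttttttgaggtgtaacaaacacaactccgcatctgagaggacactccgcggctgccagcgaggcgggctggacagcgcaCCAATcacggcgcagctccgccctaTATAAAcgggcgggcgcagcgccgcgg
All 5 hold CCAAT and TATAAA on 1 strand or the other, and within the 150 bases shown the octamer occurs in Hist1h2bb alone. Hist2h2ac holds it farther from the start, at -200. The 2 members shown for their rise from ESCs to NPCs, Hist3h2ba and Hist1h1e, hold the same CCAAT and TATAAA letters as the other 3. Those 3 are shown for their fall from NPCs to neurons, a step at which Hist1h1e fell as well.

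Total counts per library ran between 5578151 and 78814037, and the most abundant entry took 19.6% to 38.8% of them. No 2 replicates were identical. For 18 genes of the 7qF3 interval, the median ratio to the control mean of the same stage ran between 0.314 and 0.757 in the 8 del libraries, between 0.743 and 1.27 in the 8 dupdel libraries and between 0.741 and 1.42 in the 12 control libraries. In control cells summed ESC markers (Pou5f1, Nanog, Zfp42 and Esrrb) were 828 to 1049 CPM (counts scaled to a common library total) in ESCs, 1.2 to 3.52 CPM in NPCs and 0.824 to 2.73 CPM in neurons. The 3 neuron markers measured (Tubb3, Mapt and Rbfox3) summed to 38.8 to 52.7 CPM in ESCs, 200 to 411 CPM in NPCs and 763 to 1259 CPM in neurons. Nanog was at 0 in control NPCs and Zfp42 in control neurons. The 4 astrocyte markers (Gfap, Aqp4, Aldh1l1 and S100b) summed to 146 to 265 CPM in control neurons, against 2.34 to 6.48 CPM in control NPCs, and their part in the results at the neuron stage was not tested. In 9 of the 28 libraries Rpph1 exceeded 4000 CPM before TMM scaling. Rpph1 is the RNA of RNase P and carries no poly(A) tail. These libraries are ESC replicate 3 and NPC replicate 5 of each genotype, control neurons 3 and 4, and del neurons 3. The main values that move with them are also given without them.

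The summed level of the 43 members overlapped between ESCs and NPCs and was lower in every neuron library. Unless stated otherwise, CPM above and below are scaled by the trimmed mean of M values (TMM). The sum was 3153 CPM at the lowest, 4882 CPM at the median and 9089 CPM at the highest over 9 ESC libraries. It was 4077, 5561 and 18007 CPM over 11 NPC libraries, and 313, 641 and 1103 CPM over 8 neuron libraries, in the same order. In controls the sum averaged 6193 ± 2566 CPM in ESCs (SD, n = 3), 6393 ± 2060 CPM in NPCs (SD, n = 5) and 664 ± 230 CPM in neurons (SD, n = 4). As a share of all counts this was 0.593%, 0.663% and 0.0838%. Without the Rpph1-rich control libraries (replicate 3 in ESCs, 5 in NPCs, 3 and 4 in neurons) the shares were 0.386%, 0.598% and 0.0454%, and the mean sums 4746, 5900 and 475 CPM. No test was made on the sum, since the members were chosen with results known. In bulk RNA, fewer cells of a type and less RNA per cell cannot be told apart.

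**Figure D1:**
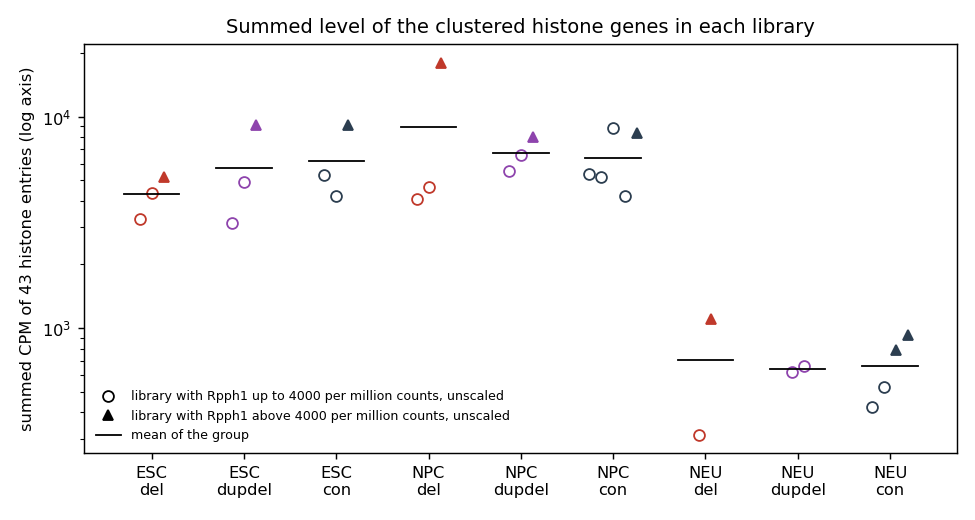
Summed level of the 43 clustered histone genes in each of the 28 libraries, as TMM-scaled CPM on a log axis, by stage and genotype (del, dupdel, con); lines mark group means and filled triangles mark the 9 libraries with over 4000 CPM of Rpph1 before TMM scaling. The 8 neuron libraries sit between 313 and 1103 CPM, below all ESC and NPC libraries, which start at 3153 CPM.

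Per kilobase of deposited span, which can be set only for the 35 entries spanning at most 5000 bases, the most abundant member in control ESCs was Hist2h2aa2, an H2A gene, with a mean of 902 CPM per kilobase. Hist1h1a, the gene of the H1.1 linker histone, came next, ahead of the H2B gene Hist2h2bb with 820 CPM per kilobase. The order in control NPCs began with Hist2h2aa2 (1041), Hist2h2bb (891) and Hist1h1a (727 CPM per kilobase). In control neurons it began with Hist2h2aa2 (104), Hist3h2ba (64.9) and Hist2h2bb (52.0), and Hist1h1a stood at 20.7 CPM per kilobase. Between replicates the levels of the members varied widely: the highest control library exceeded the lowest by a median of 2.87-fold in ESCs, 2.64-fold in NPCs and 2.99-fold in neurons. The first 3 members in each order lie closer together than that spread. Without the Rpph1-rich libraries Hist1h1a came first in control ESCs, with 986 CPM per kilobase over 2 libraries, and the first 3 in control NPCs were as above. In control neurons Hist2h2aa2 (96.1), Hist2h2bb (54.8) and the H2A gene Hist1h2ak (48.8) then came first, while Hist3h2ba had 26.5 CPM per kilobase.

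At the step from NPCs to neurons, histone genes of all 5 classes fell. In control cells 34 of the 43 members were lower in neurons by edgeR's quasi-likelihood test at an adjusted p under 0.05, and none was higher. Over all 18365 genes tested 20.5% were lower and 23.2% were higher. The median log2 fold change of the members was -3.25, and -3.28 over 41 members without the 2 whose counts were at or under the floor of 3 counts in both groups, against 0.10 over all genes. With another scaling (relative log expression) the median of all genes was 0.22 and that of the members -3.14. Ranked by library, every one of the 8 neuron libraries of any genotype lay below every one of the 11 NPC libraries for 31 of 41 members with a mean of at least 1 CPM (75.6%), against 13.7% of 14666 genes. No member had every neuron library above every NPC library, against 13.2% of those genes.

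Among linker histones, which bind at the entry and exit of the nucleosome, all 6 measured genes fell in control neurons, with a median log2 fold change of -3.95. Hist1h1a had 21.2, 17.6, 9.47 and 13.6 CPM in the 4 control neuron libraries, against 569, 557, 719, 350 and 520 CPM in the 5 control NPC libraries. The groups do not overlap, and the log2 fold change was -5.10 (SE 0.35, edgeR adjusted p 1.8e-07). Hist1h1d, which encodes H1.3, had 12.3, 12.7, 19.9 and 27.2 CPM in control neurons, against 274, 252, 375, 161 and 346 CPM in control NPCs (log2 fold change -3.94, edgeR adjusted p 1.64e-06). Hist1h1e, which encodes H1.4, fell by 2.49 on the log2 scale, and Hist1h1c, which encodes H1.2, by 2.68, or by 3.41 without the 9 Rpph1-rich libraries. Hist1h1e kept 37.9, 27.0, 63.5 and 68.3 CPM in control neurons, against 298, 258, 381, 177 and 293 CPM in control NPCs. Per kilobase of span, control neurons had means of 25.5 CPM for Hist1h1e and 20.7 CPM for Hist1h1a, where control NPCs had 146 CPM for Hist1h1e and 727 CPM for Hist1h1a. Hist1h1t, the testis linker histone, was nearly gone in both groups, with 1 count in control neurons against 65 in control NPCs, a ratio of NPCs to neurons of 53.5 in CPM with a 95% exact interval of 9.27 to 2140.

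Of the 15 H2A entries, 12 fell, with a median over the class of -3.30. Hist1h2ap, an entry whose listed span covers several copies of the canonical H2A gene, had 25.4, 45.0, 10.1 and 12.5 CPM in control neurons, against 709, 676, 1226, 666 and 936 CPM in control NPCs. That is a log2 fold change of -5.15 (SE 0.47, edgeR adjusted p 1.8e-06), and -4.46 without the 9 Rpph1-rich libraries. Among edgeR's fitted values with all libraries it was the largest fall of a member in controls. Neuron and NPC libraries did not overlap, and the same holds for the next 3 genes. Hist2h2aa2 had 41.7, 69.3, 59.8 and 68.5 CPM in control neurons, against 447, 444, 862, 517 and 737 CPM in control NPCs (log2 fold change -3.30). Hist1h2ai had 4.68, 11.7, 12.5 and 15.3 CPM in control neurons and 91.9, 82.9, 249, 72.5 and 479 CPM in control NPCs (log2 fold change -4.12, SE 0.99). Hist2h2ac, a lowly expressed gene of the Hist2 cluster, had 1.93, 2.99, 2.08 and 2.88 CPM in control neurons, against 21.0, 21.7, 38.2, 14.3 and 48.1 CPM in control NPCs (log2 fold change -3.51). The 3 H2A entries that did not pass were Hist1h2aa, at 0 counts in both groups, Hist1h2ah (-2.60, SE 1.5) and Hist3h2a.

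Of the 18 H2B entries, 12 fell, with a class median of -3.18. Hist2h2bb had 16.4, 37.6, 18.6 and 29.9 CPM in control neurons, against 281, 393, 626, 295 and 600 CPM in control NPCs (log2 fold change -4.07, edgeR adjusted p 1.73e-06). Hist1h2bb had 10.1, 9.56, 15.2 and 24.2 CPM in control neurons, against 162, 157, 181, 120 and 178 CPM in control NPCs (log2 fold change -3.41). In both genes the lowest NPC library exceeded the highest neuron library several times over. Hist1h2be and Hist1h2bc were also among the 12. Hist1h2bc was named as a member known to give polyadenylated transcripts. When single libraries were left out, the log2 fold change ran between -3.45 and -2.88 for Hist1h2be and between -2.60 and -1.93 for Hist1h2bc. All 3 entries of H3, the core histone whose tail carries many of the studied methylation marks, fell, by 3.14 on the log2 scale in Hist1h3b, by 3.74 in Hist1h3a and by 4.41 in Hist2h3c1. The 1 H4 entry, Hist1h4a, had 93.2, 102, 210 and 247 CPM in control neurons and 728, 783, 1437, 551 and 1300 CPM in control NPCs (log2 fold change -2.53, SE 0.44, edgeR adjusted p 0.000408).

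**Figure D2:**
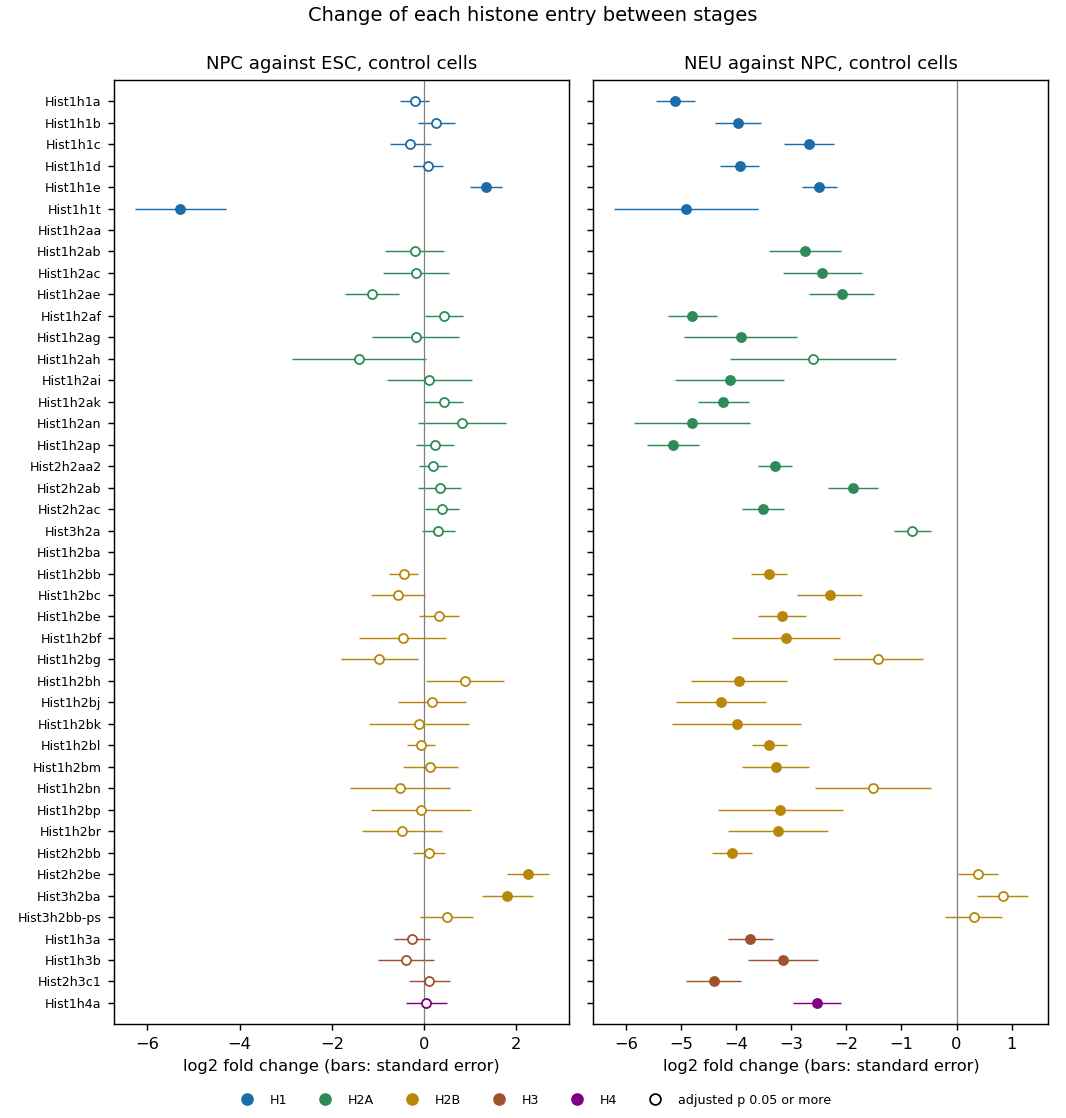
Log2 fold change of the clustered histone genes in control cells, by histone class, for NPC over ESC and for NEU over NPC; bars are standard errors, filled points passed edgeR's adjusted p under 0.05, and Hist1h2aa and Hist1h2ba, at or near 0 counts after the ESC stage, are not drawn. In the earlier step 6 members pass, 4 of them drawn, and in the later step 34 pass, all to the left of 0, while Hist2h2be, Hist3h2ba and Hist3h2bb-ps stand at 0.39, 0.84 and 0.31.

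The remaining 9 members did not pass in that comparison. Hist2h2be, known in mouse as the H2B variant gene of olfactory neurons, had 10.5, 5.98, 5.16 and 6.79 CPM in control neurons and 5.51, 4.11, 5.84, 9.16 and 3.09 CPM in control NPCs. The groups overlap, with a log2 fold change of 0.39 (SE 0.37, edgeR adjusted p 0.424), and its values were 0.21 in del and 1.43 in dupdel cells, which did not pass either. Hist3h2ba, an H2B gene of the small Hist3 cluster, had 14.2, 18.6, 71.5 and 56.5 CPM in control neurons and 14.7, 18.7, 28.3, 21.4 and 31.7 CPM in control NPCs. Its log2 fold change was 0.84 (SE 0.46, edgeR adjusted p 0.158), and -0.27 without the 9 Rpph1-rich libraries, to which the 2 highest neuron values belong. Leaving out control neuron library 1 alone gave a positive value with an adjusted p of 0.0356. Hist3h2bb-ps, the pseudogene beside it, gave 0.31 (SE 0.52). Hist3h2a, the H2A gene of that cluster, had 31.2, 34.8, 57.5 and 54.4 CPM in control neurons and 57.8, 50.9, 102, 55.2 and 129 CPM in control NPCs. Its log2 fold change of -0.80 (SE 0.33) had an edgeR adjusted p of 0.0653, and 0.0483 without the 9 libraries. The other 5 were Hist1h2aa, Hist1h2ba, Hist1h2ah, Hist1h2bg (-1.42) and Hist1h2bn (-1.52), and a p that misses the threshold does not show that they stayed level. Without the 9 libraries Hist1h2ah, Hist1h2bg and Hist1h2bn all passed as lower in neurons, with edgeR adjusted p of 0.0473, 0.000187 and 0.00381. That fit kept 2 control neuron and 4 control NPC libraries. It called 37 members, 33 of them among the 34. Over all genotypes the left-out neuron libraries had higher medians of Hist1h2ah (28.8-fold) and Hist1h2bg (12.8-fold) than the other neuron libraries.

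**Figure D3:**
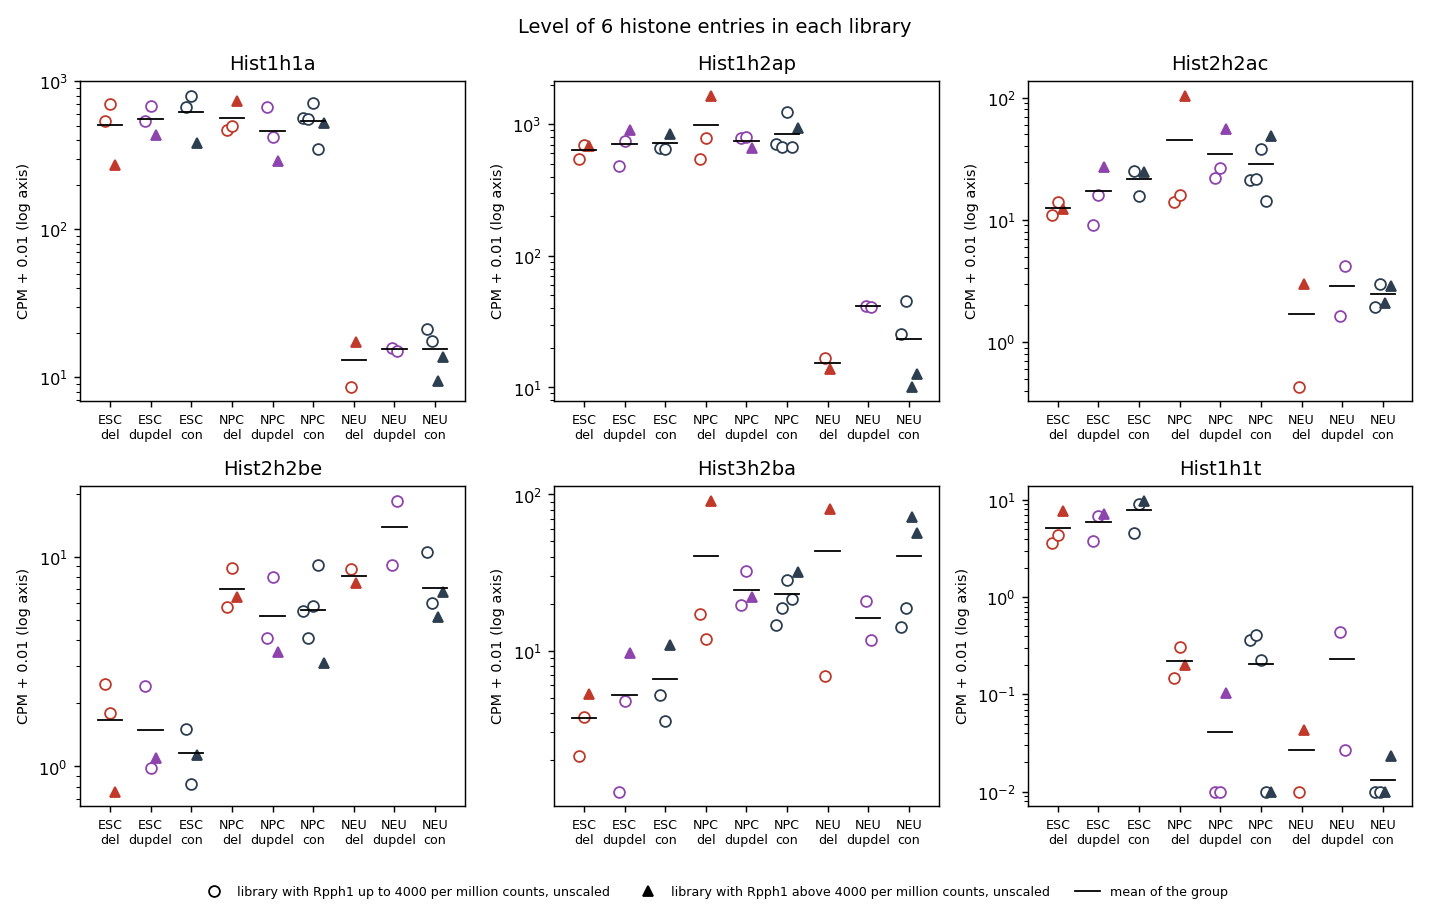
Level of 6 clustered histone genes in each library, as TMM-scaled CPM + 0.01 on a log axis, by stage and genotype; lines mark group means and filled triangles the 9 Rpph1-rich libraries. Hist1h1a, Hist1h2ap and Hist2h2ac are lower in every neuron library than in any NPC library, Hist2h2be and Hist3h2ba overlap, and Hist1h1t is between 3.6 and 9.86 CPM in ESCs and at most 0.426 CPM later.

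In the mutant lines the members that passed at this step were also lower in neurons. In del cells 21 members were lower in neurons than in NPCs and none was higher, against 9.39% and 10.5% of 18183 genes. In dupdel cells 28 were lower and none was higher, against 6.95% and 8.04% of 18565 genes. All 21 and all 28 were among the 34 of the control cells, of which they make up 61.8% and 82.4%, and 19 were called in each genotype. The count in del cells rests on few libraries: it was 9 without del neuron library 1, and 35 with a term for the Rpph1-rich libraries. In dupdel cells it was 15 without neuron library 2 and 16 without neuron library 4, and with the replicate number as a block 35 were lower and 1, Hist1h1t, was higher. Hist1h1t had 24 counts in dupdel neurons, 23 of them in library 2, against 2 in dupdel NPCs, a ratio of neurons to NPCs of 14.7 in CPM with a 95% exact interval of 3.64 to 128. Its edgeR adjusted p was 0.17 without the block and 0.0386 with it. The block leaves the dupdel fit almost no libraries beyond its terms from which to measure the spread. Hist1h1a had 8.62 and 17.4 CPM in del neurons against 469, 503 and 734 CPM in del NPCs, a log2 fold change of -5.45. It had 15.8 and 15.1 CPM in dupdel neurons against 673, 421 and 291 CPM in dupdel NPCs, a log2 fold change of -4.89. In dupdel cells Hist1h1b gave -4.88 and Hist1h2bh -4.86. The median over the members was -3.59 in del and -3.75 in dupdel cells. In del cells it was -5.80 without neuron library 3 and -2.42 without NPC library 5.

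Between ESCs and NPCs few members differed. In control cells 3 of 43 were higher in NPCs and 3 were lower, against 21% and 20.5% of the 18365 genes tested, and the median log2 fold change was 0.05 (0.01 over all genes). Hist1h1e rose, with 298, 258, 381, 177 and 293 CPM in control NPCs, against 143, 79 and 109 CPM in control ESCs (log2 fold change 1.34, SE 0.34, edgeR adjusted p 0.00605). Hist2h2be had 5.51, 4.11, 5.84, 9.16 and 3.09 CPM in control NPCs, against 1.5, 0.816 and 1.13 CPM in control ESCs (log2 fold change 2.25, SE 0.45, edgeR adjusted p 0.00126). Neither pair of groups overlaps. Hist3h2ba had 14.7, 18.7, 28.3, 21.4 and 31.7 CPM in control NPCs, against 5.19, 3.56 and 10.9 CPM in control ESCs (log2 fold change 1.81, SE 0.54, edgeR adjusted p 0.016). The adjusted p of Hist3h2ba was 0.0656 without control ESC library 1 and 0.0795 without library 2. For these 3 and no other member, every NPC library of any genotype lay above every ESC library (3 of 41, 7.32%), against 17.1% of genes.

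The 3 members that fell at this step are the testis histones, which replace or accompany the usual histones in male germ cells. Hist1h1t, the testis H1, had 0.353, 0.399, 0.216, 0 and 0 CPM in control NPCs, against 4.60, 9.15 and 9.86 CPM in control ESCs (log2 fold change -5.28, SE 0.99, edgeR adjusted p 0.000756). Among the 41 members with a mean of at least 1 CPM it was the 1 (2.44%) for which every NPC library lay below every ESC library, against 12.6% of genes. Hist1h1t reached that mean only through its ESC libraries, and Hist1h2aa and Hist1h2ba fell short of it. The filter therefore sets this share, which is no result about the members. Hist1h2aa, the testis H2A, had 328 counts in the 3 control ESC libraries and none in any of the 19 NPC and neuron libraries. Against a floor of 3 counts over the control NPC group it was at least 315-fold lower there than in control ESCs. Hist1h2ba, the testis H2B, had 1 count in the control NPC libraries and 129 in the control ESC libraries, a ratio of ESCs to NPCs of 372 in CPM with a 95% exact interval of 65.5 to 14800, which covers counting error only. These were low levels in ESCs as well: Hist1h2ba reached 0.787 to 2.43 CPM in control ESCs. In del cells Hist1h2aa had 149 counts in ESCs and in dupdel cells 301, and it was at least 108-fold and 124-fold lower in NPCs of the same genotype. The RefSeq starts of Hist1h2aa and Hist1h2ba lie head to head, 281 bases apart.

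Both mutant lines gave the same 6 calls between ESCs and NPCs. Del cells had 5 members higher and 3 lower, against 16.7% and 13.2% of 18183 genes, and the 2 further higher members were Hist3h2a and Hist3h2bb-ps. Dupdel cells had 3 higher and 3 lower, against 17.5% and 14.2% of 18565 genes. In del cells Hist3h2ba had 17.2, 11.8 and 91.4 CPM in NPCs, against 2.12, 3.74 and 5.24 CPM in ESCs (log2 fold change 3.48, edgeR adjusted p 0.0289), and the value was 2.03 with an adjusted p of 0.0921 without NPC library 5. In dupdel cells it had 19.6, 32.2 and 22.0 CPM in NPCs, against 1.24, 4.75 and 9.62 CPM in ESCs (log2 fold change 2.28, edgeR adjusted p 0.0243). The count in del cells was 3 with the replicate number as a block, a fit with almost no libraries left to measure the spread. It was 5 without NPC library 5, ESC library 1 or ESC library 2. The count in dupdel cells was 11 without ESC library 3.

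Head-to-head pairs of H2A and H2B genes share 1 promoter region, and 7 such pairs were found among the members, with 164 to 281 bases between their starts. In control neurons against NPCs, both genes of 3 pairs fell: Hist1h2ag and Hist1h2bj (-3.91 and -4.28), Hist1h2an and Hist1h2bp (-4.80 and -3.20), and Hist1h2ai and Hist1h2bl (-4.12 and -3.40). In 3 further pairs only 1 gene passed. These were Hist1h2ae with Hist1h2bg (-2.09 and -1.42), Hist1h2bk with Hist1h2ah (-3.99 and -2.60), and Hist1h2ak with Hist1h2bn (-4.23 and -1.52), and the difference within a pair was not tested. Without the 9 Rpph1-rich libraries both genes of these 3 pairs passed as well. The seventh is the testis pair.

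Genes that work with histone mRNAs and proteins were followed as lists, whose counts stand against the 20.5% of all genes that were lower and the 23.2% that were higher in control neurons. Of 22 genes of S phase and DNA replication, all 22 fell in control neurons against NPCs, with a median log2 fold change of -3.58. Their summed level was 172 to 260 CPM in control neurons, against 2083 to 2995 CPM in control NPCs. Cdc6, which loads the replicative helicase, fell by 5.08 on the log2 scale and Mcm3, a helicase subunit, by 4.82. Of 18 measured genes of histone mRNA processing and the histone locus body, 9 fell and 1 rose, with a median of -0.81. Slbp, whose protein binds the stem-loop, fell by 1.81 and Casp8ap2 (FLASH), a histone locus body protein, by 2.09, while Lsm11, a subunit of the U7 particle that cleaves histone mRNAs, rose by 1.40. Of 16 histone chaperones 13 fell and none rose, among them Asf1b (-4.29) and Chaf1b (-4.68), a subunit of the replication-coupled assembly factor. Of 10 tested histone variant genes outside the clusters 7 fell and none rose, while H3f3b, which encodes the replication-independent H3.3, gave 0.05 (SE 0.20).

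Between NPCs and ESCs in control cells, where 21% of all genes were higher and 20.5% lower in NPCs, these lists gave mixed counts. Of the S phase genes 4 were higher and 9 lower in NPCs, and of the processing genes none was higher and 3 were lower, among them Zfp473 (-3.98), which takes part in histone pre-mRNA cleavage. Of the chaperones 1 was higher and 4 were lower, and of the variants outside the clusters 4 were higher and 1 lower. None of these lists had a gene that passed in the comparisons of a mutant with control at any stage.

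No clustered histone gene passed between genotypes at any stage in edgeR's test, without or with the replicate number as a block. The shares of genes given next are from the fits without the block. In ESCs 0% of 16470 genes passed in each of the 3 comparisons, del with control, dupdel with control, and del with dupdel. In NPCs 0.00596%, 0.0119% and 0.0238% of 16783 genes passed, in the same order, and in neurons 0%, 0.039% and 0.0335% of 17931 genes. At an unadjusted p under 0.05 there were 2 members in del against control ESCs, 1 in del against control NPCs, 1 in dupdel against control neurons, 1 in del against dupdel neurons and none in the other 5 comparisons. Of all genes 1.26%, 0.31% and 0.996% were under that p in ESCs, 3.56%, 2.66% and 4.01% in NPCs, and 3.63%, 7.22% and 8.85% in neurons, for del with control, dupdel with control and del with dupdel in that order. DESeq2 on the same counts called 0 members in all 9. In the authors' deposited table of 6 mutant-to-control comparisons no member had an adjusted p under 0.05, and the smallest was 0.177, in dupdel neurons.

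All 43 members were tested in ESCs, 41 in NPCs and 40 in neurons, and the balance of signs differed between comparisons. The closest balance was in dupdel against control NPCs, with 22 positive and 19 negative values, and del against control neurons had 25 positive and 15 negative. In del against control ESCs 41 of 43 values were negative, with a median of -0.50 (all genes -0.02). Hist3h2a had the smallest p there, with 28.8, 27.3 and 34.0 CPM in del ESCs, against 59.0, 41.5 and 89.8 CPM in control ESCs (log2 fold change -1.01, SE 0.37, edgeR adjusted p 1). The groups do not overlap, yet the adjusted p in this fit without a replicate block is far from the threshold. With the replicate number as a block the smallest edgeR adjusted p of any member there was 0.181, and 40 of 43 values were negative. In del against control NPCs all 41 values tested were positive, with a median of 0.60 (all genes 0.04). The member sum was 4077, 4630 and 18007 CPM in the 3 del NPC libraries, against 5371, 5192, 8818, 4221 and 8365 CPM in control NPCs, so that 1 del library, replicate 5, stands above all others. Hist1h2ae gave 1.20 (SE 0.61) there, with 7.45, 5.39 and 45.4 CPM in del NPCs against 8.6, 6.40, 8.24, 4.94 and 14.0 CPM in control NPCs, and -0.39 without del library 5. In neurons the medians were 0.15 for del and -0.40 for dupdel against control. Hist2h2be had 9.16 and 18.5 CPM in dupdel neurons, against 10.5, 5.98, 5.16 and 6.79 CPM in control neurons (log2 fold change 0.95, SE 0.39, edgeR adjusted p 0.681).

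Without the 9 Rpph1-rich libraries the median of the members changed sign in all 3 NPC and all 3 neuron comparisons. In dupdel against control NPCs it moved only from 0.02 to -0.02. The control groups then held 2 ESC, 4 NPC and 2 neuron libraries. Del neurons held replicate 1 alone, on which the neuron values of del given next rest. Del against control gave -0.42 in ESCs, -0.47 in NPCs and -0.81 in neurons. Dupdel against control gave -0.34 in ESCs, -0.02 in NPCs and 0.46 in neurons. Del against dupdel gave -0.07 in ESCs, -0.47 in NPCs and -1.33 in neurons, where all libraries had given -0.38, 0.59 and 0.61. Leaving out single libraries moved the median of del against control between -0.86 and -0.11 in ESCs and between -0.59 and 1.01 in NPCs. In neurons it ran between -1.43 and 0.89, and -1.43 came without del library 3, which leaves del library 1 alone.

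**Figure D4:**
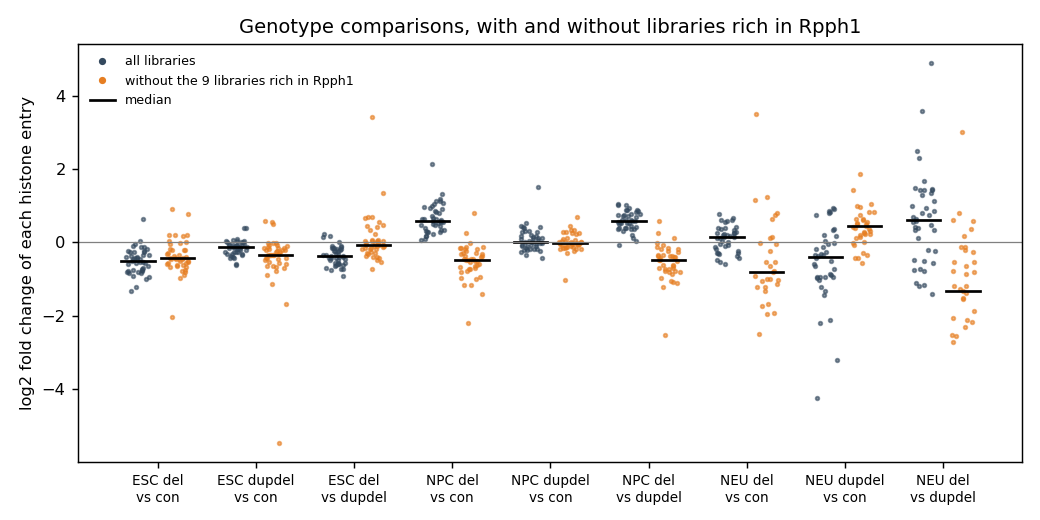
Log2 fold change of each member in the comparisons of del and dupdel with control and of del with dupdel at each stage, with all libraries and without the 9 Rpph1-rich libraries; each point is 1 gene, lines mark medians over all tested members, and entries with at most 3 counts in a group are not drawn. With all libraries the del points lie below 0 in ESCs (median -0.50) and above 0 in NPCs (median 0.60), and without the 9 libraries the NPC median is -0.47.

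The change of a genotype effect between stages was tested in 1 model over all 28 libraries, and no member passed. For the del effect in NPCs minus that in ESCs 0.005% of 19996 genes passed, for the del effect in neurons minus that in NPCs 0.005%, for the dupdel effect in NPCs minus that in ESCs 0.005%, and for the dupdel effect in neurons minus that in NPCs 0%. At an unadjusted p under 0.05 the counts of members were 3, 0, 0 and 1, against 3.22%, 3.1%, 2.67% and 5.02% of all genes. DESeq2 called none in the first 3 and Hist1h1t in the last, at 8.77 with an adjusted p of 0.0112, where edgeR gave 8.29 with 0.869. That value rests on few counts: 24 in dupdel neurons, 23 of them in library 2, against 1 in control neurons, and 2 in dupdel NPCs against 65 in control NPCs.

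Within a stage most members had a higher median level in the libraries rich in Rpph1. In ESCs the 3 Rpph1-rich libraries had a median of 12264 CPM of Rpph1 against 898 CPM in the other 6, and 4014 against 1130 CPM of Rmrp, the RNA of RNase MRP. In the same libraries 40 of 43 members had a higher median than in the other 6, against 53% of the 13414 genes with a mean of at least 1 CPM, and the median over the members was 2.39-fold (1.04-fold over those genes). For 20 of the members every Rpph1-rich library lay above every other library, against 19% of those genes. Hist1h2ai had a median of 450 CPM against 19.9 CPM, and Hist1h3b 1077 against 163 CPM. Hist1h1a went the other way, at 0.568-fold, and Hist2h2be had 1.09 against 1.64 CPM. The median was 2.09-fold over 40 members in NPCs and 2.08-fold over 35 in neurons, against 1.01-fold and 0.993-fold over all genes at that level. Members spanning at most 400 bases had a median of 2.65-fold in ESCs and 2.47-fold in NPCs, against 1.83 and 1.76-fold for those of 400 to 5000 bases, while in neurons the values were 1.83 and 2.44-fold. A wider list of RNAs without poly(A) (Rn7sk, Rmrp, Rpph1, Terc, Y RNAs and small nucleolar and Cajal body RNAs) had 112 entries in the table, of which 18 to 24 were tested in a comparison. Its median was 0.39 in control neurons against NPCs (members -3.25) and -0.86 in control NPCs against ESCs (members 0.05). In dupdel against control neurons its median was -2.72, where the members had -0.40. The part of these libraries in the genotype values beyond the counts given without them was not tested.

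Within the libraries that were not Rpph1-rich the member sum also followed these RNAs. Over 6 such ESC libraries the log2 sum correlated with log2 Rpph1 at r = 0.98 and rho = 0.94, and r was 0.88 without the 2 libraries farthest from the median of Rpph1. With log2 Rmrp r was 0.95 and rho 0.89, and r was 0.69 without the 2 libraries farthest from its median. Over 8 NPC libraries r with Rmrp was 0.92 and rho 0.74, and r was 0.87 without 2 libraries chosen in the same way. With Rpph1 r was 0.71 and rho 0.76, and r was 0.81 without 2. These 4 relations, 2 genes in 2 stages, are given as a description with no p, since the sum runs over members chosen with results known, and the 5 such neuron libraries are too few. The points mix genotypes and share each library's scaling. Per count of Rpph1 plus Rmrp the members had 0.495 to 2.78 counts in ESC libraries, 0.67 to 5.99 in NPC libraries and 0.146 to 0.619 in neuron libraries. On that scale every neuron library still lay below every NPC library, and the ranges of neurons and ESCs overlapped.

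**Figure D5:**
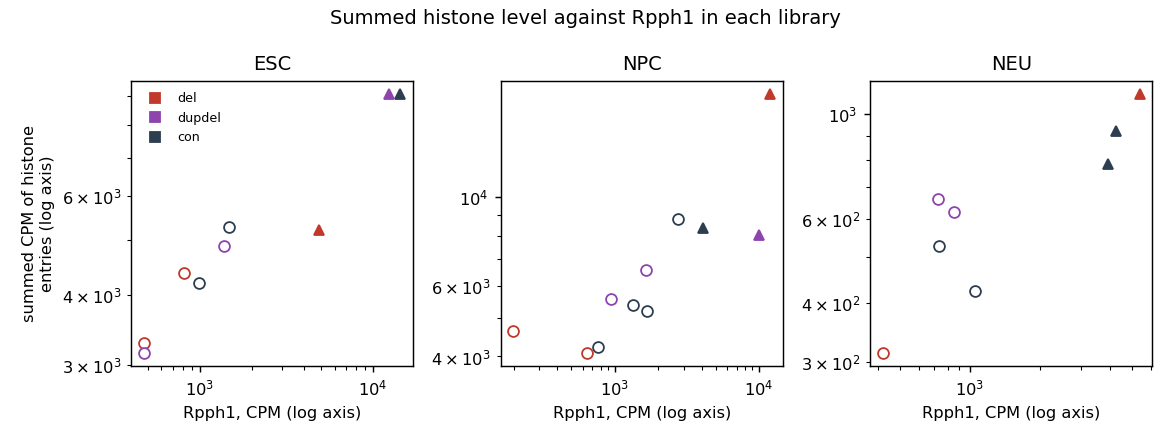
Summed level of the clustered histone genes against the level of Rpph1 in each library, both as TMM-scaled CPM on log axes, with a panel for each stage and colours for del, dupdel and con; filled triangles mark the 9 libraries with over 4000 CPM of Rpph1 before TMM scaling. Points with more Rpph1 tend to lie higher in the ESC and NPC panels, where r was 0.98 and 0.71 over the open circles. In the neuron panel the filled triangles start at 785 CPM, above the open circles, which reach 663 CPM. No r was taken there.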

How the data were processed

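Total RNA was extracted with TRIzol and made into TruSeq Stranded total RNA libraries, sequenced as 75-base pairs on a NextSeq 500, per the labels' protocols. STAR 2.6.0c, RSEM 1.3.0, DESeq2 1.22.2 and mm9 are named in the submitters' processing notes, and whether counting used strand is not given in the sources used here. The deposited table holds expected counts per gene entry, made by the authors and not whole where reads were divided among entries. A second deposited table gives the authors' DESeq2 comparisons of each mutant with control: a mean signal (baseMean), log2 fold changes with standard errors, a score (the Wald statistic), p-values and adjusted p-values. The 6 Hi-C samples were not analysed here.

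Here expected counts were rounded, 92 spike-in entries left out of 29968, and edgeR 4.0.16 in R 4.3.3 (robust quasi-likelihood fit, TMM scaling, filterByExpr by group, Benjamini-Hochberg over all genes tested, threshold 0.05, two-sided) was run within each stage over 3 genotypes, within each genotype over 3 stages, and over all 28 libraries for changes of a genotype effect. The tests were checked on simulated counts. Alternatives were relative log expression scaling, no filter, DESeq2 1.42.0, the replicate number as a block and leaving out each library. Leaving out the 9 libraries with over 4000 CPM (counts scaled to a common library total) of Rpph1 before scaling, a term for them, levels without the control libraries among them, and sums per count of Rpph1 plus Rmrp were chosen after seeing the data. Same-numbered ESC libraries deviated together in 9 of 9 pairs (r between 0.224 and 0.692), against -0.491 to 0.24 in other ESC pairs. The numbers were therefore read as pairing ESC libraries, from the data. The main ESC values nevertheless come from the fit without a block. The block changed no call among the members there. Over all 16470 genes it gave 9 calls in del against control, 7 in dupdel against control and 13 in del against dupdel ESCs.

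The members, gene lists and tests were chosen with earlier results of these data known. Named were the 3 most abundant members of each class, up to 3 called members in each direction and comparison (or the 2 with the smallest p), the testis histones, a set of members known to give polyadenylated transcripts, and up to 4 genes of each list by p. Promoter and head-to-head positions come from RefSeq on GRCm38.p6, for 43 members matched by symbol or synonym, 42 of them to 1 gene, and are not on the build of the counts. With depths of 5578151 to 78814037 counts, intervals and floors cover counting error only.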

Additional observations from a re-analysis of the deposited data

How the results depend on the processing

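Over 1162 alternative values of 108 results, 1096 were counted as the same. A log2 fold change of a named member had to keep its direction and its side of the threshold. A count of called members had to stay within 1.5 times. Medians of the members and group sums had only to move by less than an SD between libraries, whatever their sign. Leaving out single libraries moved the median of dupdel against control ESCs between -0.72 and 0.27, and these values are among the 1096. The counts of called members in control cells are also among the 1096. The 34 at the neuron stage ran between 33 and 38, and the 6 at the NPC stage between 5 and 8. In del cells the NPC count of 8 was 3 with the replicate block and 5 to 8 when single libraries were left out, and the neuron count of 21 was 35 with a term for the Rpph1-rich libraries and 9 to 27 when single libraries were left out. In dupdel cells the NPC count of 6 ran between 4 and 11, and the neuron count of 28 between 15 and 26, when single libraries were left out. DESeq2 gave 1 member, Hist1h1t, for the dupdel effect in neurons minus that in NPCs, where edgeR gave 0. Leaving out single libraries leaves fewer of them in a group, and the cause of the other changes was not tested. Hist1h2ae in del against control NPCs reversed from 1.20 to -0.13 without the 9 Rpph1-rich libraries and ran between -0.39 and 1.65 when single libraries were left out, and Hist3h2ba in control neurons against NPCs reversed from 0.84 to -0.27 without the 9. In the fits by genotype, and in NPC and neuron fits, same-numbered libraries were not taken as pairs, though r was over 0.1 in 5 of 7 NPC and 3 of 4 neuron pairs. Same-numbered NPC pairs had r of -0.03 to 0.48, against -0.38 to 0.23 in other pairs. In neurons these were 0.08 to 0.50 and -0.50 to 0.40. Same-numbered pairs had r of -0.29 to 0.26 in the del fit and -0.02 to 0.15 in the dupdel fit. In both of these fits the block leaves almost no libraries to measure the spread. The replicate block gave 35 called members in control neurons against NPCs and left the genotype comparisons in NPCs and neurons at 0. It moved the member median of del against control NPCs from 0.60 to 0.07. Depth limits the testis histones and other members near 0 counts after the ESC stage.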
